A study of Rattus norvegicus with 24 samples.

Results

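Differentiation of primary rat oligodendrocyte precursor cells (OPCs) into oligodendrocytes (OLs) was described in vehicle-treated cultures, from the 4 OL and the 4 OPC libraries that received dimethyl sulfoxide (DMSO), 8 of the 24 libraries of the series. The libraries were chosen by their labels and names, not by any measured value, and ERCC spike-in RNA was left out of the gene tests. DMSO-treated OPCs were collected after 24 hours of proliferation with 0.04% DMSO. DMSO-treated OLs had 24 hours of proliferation and then 72 hours of differentiation with the same vehicle. The study's methods state that the cells came from cortices of newborn Sprague Dawley rat pups and were purified from mixed glial cultures by shaking, that OPCs grew in medium with bFGF, PDGF-AA and NT3, and that OLs were moved to a medium with thyroxine and insulin and without these growth factors. Stage, medium and days in culture therefore cannot be told apart here. Replicates are cultures from independent litters by the study's methods. An OL and an OPC library with the same number are taken to share a litter, from the date and letter in their names. The other 16 libraries were untreated cells or cells given 8 µM dolutegravir (DTG), an HIV integrase inhibitor, at the same stages.

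OPCs are dividing glial cells that respond to platelet-derived growth factor through the receptor PDGFRα and carry the proteoglycan NG2. When they differentiate, they leave the cell cycle, extend branched processes and make the lipids and proteins of myelin, the membrane that insulates axons. The step is known to depend on growth factor withdrawal, thyroid hormone and transcription factors such as OLIG2, SOX10 and MYRF.

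The cell cycle lists were the most completely named, and some of their members hold known motifs before their start sites. Below are the 250 bases before the RefSeq start of Mki67 and Kif23, which act in mitosis, and of Gins1 and Pola1, which act in DNA replication. They are read 5′ to 3′ on the gene's own strand of the rat build GRCr8, and they were chosen among the named genes because they hold motifs known from cell cycle promoters. Capitals mark, in the mitosis genes, the CHR element TTTGAA and the CCAAT box, and in the replication genes the E2F site TTTGGCGC, each on either strand. In Mki67 the CHR nearest to the start runs into a CCAAT box on the other strand, and in Gins1 the E2F sites of both strands overlap.
Mki67, chr1:199952594-199952843, minus strand: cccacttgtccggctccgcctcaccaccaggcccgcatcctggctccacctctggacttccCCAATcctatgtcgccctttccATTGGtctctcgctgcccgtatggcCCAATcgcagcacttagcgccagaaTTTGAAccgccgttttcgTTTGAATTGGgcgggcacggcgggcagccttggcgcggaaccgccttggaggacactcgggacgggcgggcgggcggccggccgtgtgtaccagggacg
Kif23, chr8:71320585-71320834, minus strand: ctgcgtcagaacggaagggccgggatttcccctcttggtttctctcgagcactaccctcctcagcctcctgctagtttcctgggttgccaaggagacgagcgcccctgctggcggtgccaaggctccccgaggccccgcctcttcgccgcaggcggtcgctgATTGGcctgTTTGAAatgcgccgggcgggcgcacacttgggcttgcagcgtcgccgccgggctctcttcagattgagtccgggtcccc
Gins1, chr3:160184670-160184919, plus strand: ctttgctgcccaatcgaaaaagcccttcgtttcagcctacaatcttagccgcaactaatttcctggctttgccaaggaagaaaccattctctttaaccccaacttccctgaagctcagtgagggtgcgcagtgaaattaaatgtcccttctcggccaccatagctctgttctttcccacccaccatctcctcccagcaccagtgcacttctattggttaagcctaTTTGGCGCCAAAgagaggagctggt
Pola1, chrX:62342356-62342605, minus strand: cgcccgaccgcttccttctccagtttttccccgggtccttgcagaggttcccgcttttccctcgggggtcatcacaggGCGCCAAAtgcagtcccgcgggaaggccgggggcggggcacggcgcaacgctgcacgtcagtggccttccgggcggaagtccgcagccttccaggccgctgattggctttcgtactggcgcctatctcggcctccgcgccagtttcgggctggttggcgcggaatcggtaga

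Of the 31 mitosis genes measured, 26 had a promoter in the RefSeq table, and 10 of these (38.5%) held a CHR, against 16.03% of all 27457 promoters of the same length. A CCAAT box, CCAAT on either strand, was in 19 of the 26 (73.1%) against 34.3% of all promoters. Both motifs together were in 10 (38.5%) against 5.76% of all. Of the 34 replication genes, 29 had a promoter, and 7 (24.1%) held an E2F site, TTTGGCGC or TTTCCCGC, against 1.26% of all promoters and 0 of the 26 mitosis promoters. Among the 1336 promoters of the other named genes that fell, the shares were 12.95% for CHR, 34.5% for the CCAAT box and 4.19% for E2F. A match of letters describes a sequence and does not show that a factor was bound.

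Each library held between 13268647 and 17322475 counts on the 32883 genes listed. ERCC RNA is a set of synthetic transcripts that the study mixed into total RNA of matched amount. It took 1.78%, 2.21%, 1.06% and 3.45% of counts in OPCs and 2.19%, 3.99%, 7.19% and 3.42% in OLs. The OL library of replicate 3 lies above the others, and the groups overlap (p = 0.143 in an exact two-sided permutation test, 0.214 after adjustment over 3 measures). That test does not use the litters, within which the share was higher in OLs in 3 of 4. Relative to TMM-scaled totals it was higher in all 4 litters, from 1.48% in OPCs to 2.32% in OLs, 2.07% to 4.83%, 0.885% to 9.12% and 3.54% to 4.11% (exact permutation p = 0.0571, adjusted 0.0857). Mitochondrial genes took 2.01% to 4.52% of counts in OPCs and 2.04% to 2.55% in OLs (exact permutation p = 0.257, also after adjustment). The 100 most counted genes of a library took 17.9% to 22.5% in OPCs and 23.1% to 25.8% in OLs. These groups do not overlap, and p = 0.0286 is the smallest that an exact test of 4 against 4 can give (adjusted 0.0857). Symbols could be paired with 2103 gene identifiers, through supplementary tables of the study, and 1932 of the 2414 genes that fell (80.03%) but 47 of the 1831 that rose (2.57%) had one. All of the 47 come from a table of genes that the study listed as changed by DTG in OLs, and most falling genes from a table of genes it listed as lower in OLs. The number of named genes that fell is therefore set by the naming, and counts below are given out of all members of a list, named or not, to be set against the share of all genes tested. Such a count is a lower bound, since members without a symbol could also have fallen or risen. Lists and their members were also chosen with earlier results of these data known. A count above the share of all genes tested can therefore come from that choice, and it is a description and no test of the list. Medians over a list cover its named members alone, whose direction the naming largely fixed, and are descriptions. A list member called measured is one that had a symbol and was tested. Members without a symbol could not be found among the genes counted.

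**Figure D1:**
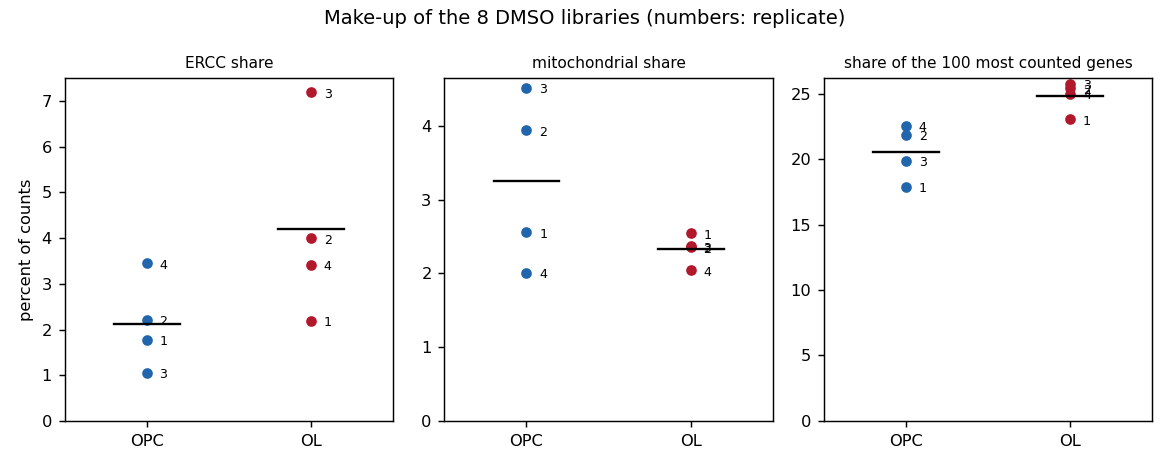
Percent of counts taken by ERCC RNA, by mitochondrial genes and by the 100 most counted genes in each DMSO library, with OPCs in blue, OLs in red, the replicate number beside each point and the group mean as a line. The ERCC share of OL replicate 3, 7.19%, is above all other points of its panel, and only the last panel separates the groups.

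With DMSO, 13023 genes were tested, and 1831 were higher (14.1%) and 2414 lower (18.5%) in OLs than in OPCs at an adjusted p below 0.05 and a change of more than 1 in either direction on the log2 scale. The test was edgeR's quasi-likelihood test, and p-values were adjusted over all genes by the Benjamini-Hochberg method. Genes called higher took 12.3% of the summed level in OPCs and 33.2% in OLs, and genes called lower took 13.0% in OPCs and 3.32% in OLs. Levels are CPM, read counts per fixed library total after TMM scaling, so a level is relative to the other genes of its library. In these cultures fewer cells of a type and less RNA per cell cannot be told apart. Changes of 1 to 2 on the log2 scale made up 1242 of the rises and 1715 of the falls, and 52 rises but 12 falls were over 5. The median exonic length was 2206 bases for genes that rose, 2918.5 for genes that fell and 2310 for genes not called. The 2 groups of 4 libraries did not overlap in 5848 of all genes tested (44.9%), among them 1718 of the 1831 rises and 1972 of the 2414 falls. In 1817 of the 1831 rises and 2364 of the 2414 falls, all 4 litters moved in 1 direction. With libraries scaled to their ERCC counts, the median change over all genes moved from -0.12 to -1.52 on the log2 scale, and 278 genes were higher and 6701 lower. Of the 1831 genes called higher, 625 were below 0 under that scaling, and of the 2414 called lower 0 were above 0. Of the genes named below, most of which fell, Arpc1b, Txnip and Mt-nd3, none of them called, turned their direction.

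**Figure D2:**
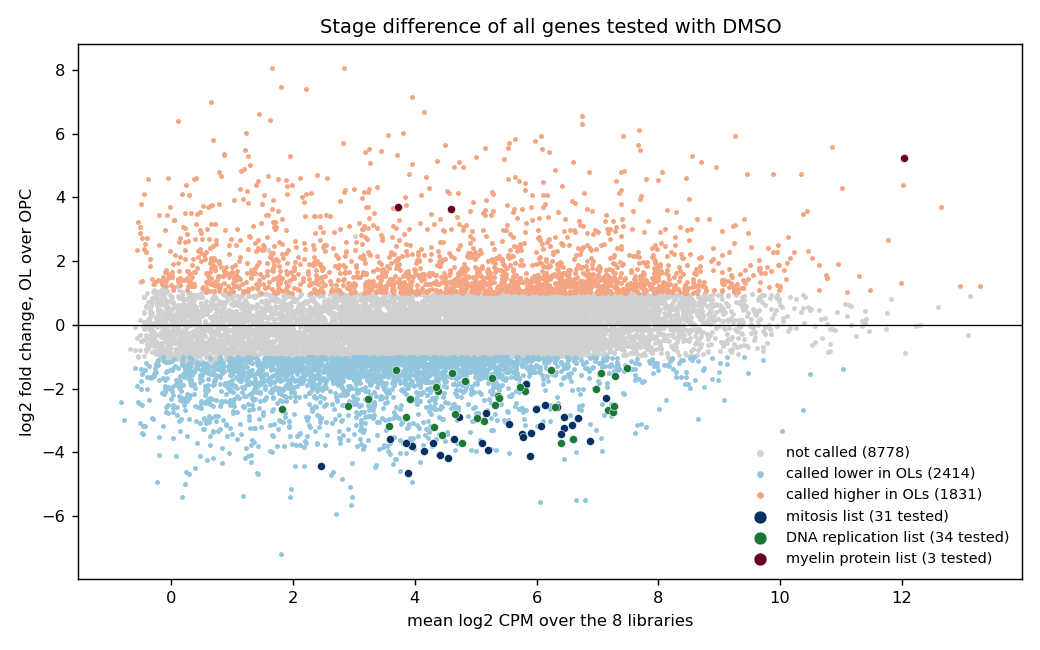
Log2 fold change, OL over OPC, against mean log2 CPM for each of the 13023 genes tested with DMSO, with genes of 3 lists drawn larger. The 31 mitosis and 34 DNA replication genes all lie below 0 and the 3 measured myelin protein genes above 3.

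The myelin genes Mbp, Mog and Gjc3 rose in every litter. Of 25 listed myelin protein genes, 3 had a symbol and were tested, and they rose, a share of the list near the 14.1% of all genes tested that did, so that nothing is read from their number. Mbp, which encodes the myelin basic protein that compacts the myelin membrane (chromosome 18, 79326738 to 79437310 in the build Rnor_6.0), stood at 234, 299, 189 and 138 CPM in OPCs and at 7355, 11141, 10079 and 4161 CPM in OLs. The lowest OL library, replicate 4, lies over 10 times above the highest OPC library, and Mbp was 38-fold higher in OLs (log2 fold change 5.25 ± 0.42 SE, edgeR adjusted p = 1.38e-06). Mog, a glycoprotein of the outermost myelin layer, stood at 4.06, 2.67, 4.2 and 3.33 CPM in OPCs and 45.8, 50.8, 47.5 and 33.2 CPM in OLs (log2 fold change 3.62 ± 0.24 SE, edgeR adjusted p = 3.51e-07). Gjc3, a connexin of oligodendrocytes and Schwann cells, stood at 1.85, 1.14, 2.44 and 1.88 CPM in OPCs and 21.7, 36, 29.5 and 10.2 CPM in OLs (log2 fold change 3.71 ± 0.41 SE, edgeR adjusted p = 1.50e-05). The groups do not overlap for any of the 3, as for 1718 of all 1831 genes called higher, and OL replicate 4 is the lowest OL library for each. Per kilobase of exon, the mean OL level of Mbp was 2428 RPKM, of Gjc3 31.3 RPKM and of Mog 28.1 RPKM. In the 250 bases before the start, 5 of the 19 listed myelin protein genes with a promoter (26.3%) held CTGGCAC, the core of the MYRF motif, on either strand, against 3.69% of all promoters, and 6 (31.6%) held the SOX10 motif ACAAAG, likewise on either strand, against 15.96%.

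Among the other OL genes, Enpp6, a choline-specific phosphodiesterase used as a mark of newly forming OLs, stood at 1.72, 1.94, 2.91 and 0.903 CPM in OPCs and 90.5, 119, 107 and 46.9 CPM in OLs (log2 fold change 5.55 ± 0.37 SE, edgeR adjusted p = 3.70e-07). Adamts4, a protease that cleaves proteoglycans and is made by mature OLs, stood at 4.12, 7.35, 8.26 and 3.47 CPM in OPCs and 105, 206, 148 and 68.7 CPM in OLs, 22.4-fold higher (log2 fold change 4.49 ± 0.38 SE, edgeR adjusted p = 2.21e-06). Tppp, a tubulin polymerizing protein of myelinating cells, stood at 3.02, 1.94, 4.06 and 1.88 CPM in OPCs and 66.9, 60.6, 43.8 and 25.2 CPM in OLs (log2 fold change 4.14 ± 0.36 SE, edgeR adjusted p = 2.64e-06). The groups do not overlap for these genes, and again replicate 4 gave the lowest OL level. Anln, listed as an OL marker, went the other way, from 42.8, 18.4, 28.8 and 11.7 CPM in OPCs to 1.92, 2.57, 2.31 and 1.07 CPM in OLs (log2 fold change -3.70 ± 0.44 SE, edgeR adjusted p = 2.63e-05). Anillin, its product, is a scaffold of the contractile ring in dividing cells and of septins in myelin, and its level moved with those of the mitosis genes. Of the 25 OL markers listed, 3 were tested, 2 rose and 1 fell. Of all genes tested 14.1% rose and 18.5% fell, and nothing is read from these counts.

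**Figure D3:**
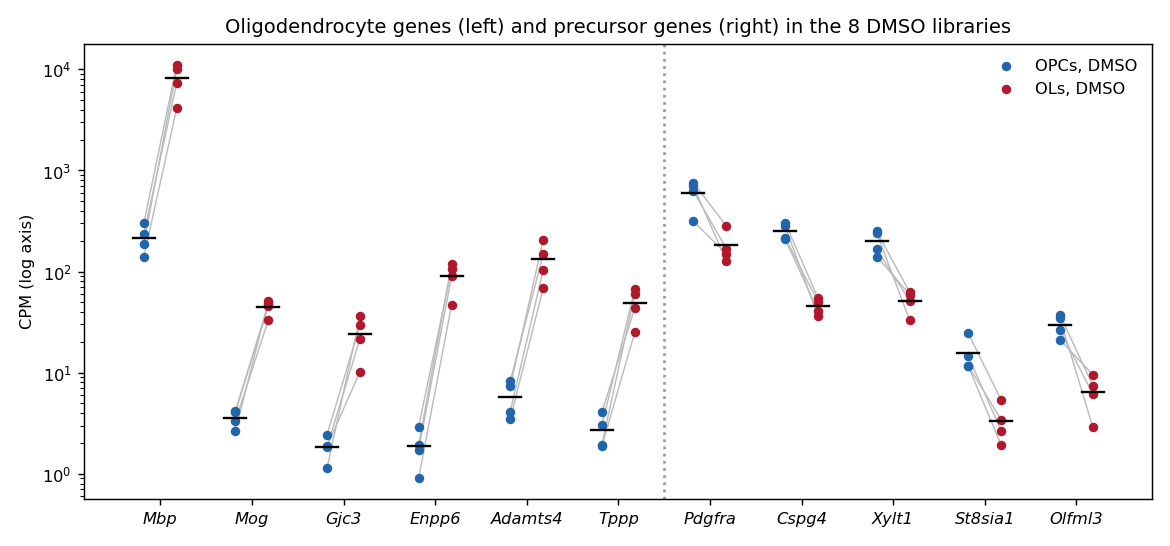
Level in CPM (log axis) of 6 genes of OLs, left of the dotted line, and 5 genes of OPCs, right of it, in each DMSO library, with grey lines joining OPC and OL libraries of 1 litter and black lines at the group means. Every grey line rises on the left and falls on the right.

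The OPC markers with a symbol fell but were still counted in every OL library. These are 5 of the 24 listed, a share near the 18.5% of all genes tested that fell, and the naming fixed their direction. Their median log2 fold change was -2.20. Pdgfra, the receptor for PDGF-AA (chromosome 14, 35527927 to 35581031), stood at 755, 622, 697 and 314 CPM in OPCs and 282, 168, 127 and 149 CPM in OLs (log2 fold change -1.72 ± 0.31 SE, edgeR adjusted p = 0.0006). The lowest OPC library, replicate 4, is near the highest OL library, replicate 1, but does not reach it. Cspg4, which encodes NG2, stood at 304, 281, 211 and 216 CPM in OPCs and 54.5, 36.1, 40.6 and 50.00 CPM in OLs (log2 fold change -2.48 ± 0.20 SE, edgeR adjusted p = 1.78e-06), a wider gap than that of Pdgfra. Xylt1, which starts glycosaminoglycan chains on proteoglycans such as NG2, stood at 249.6, 167, 242 and 141 CPM in OPCs and 62.5, 51.2, 33 and 59.3 CPM in OLs (log2 fold change -1.95 ± 0.25 SE, edgeR adjusted p = 5.01e-05). St8sia1, which makes a ganglioside of precursor cell membranes, had a log2 fold change of -2.21 ± 0.36, and the secreted protein gene Olfml3 one of -2.20 ± 0.32. Per kilobase, the mean Pdgfra level was 91.7 RPKM in OPCs and 27.8 RPKM in OLs, and that of Cspg4 31.3 and 5.61 RPKM.

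All measured genes of mitosis fell. Of 32 genes listed, 31 had a symbol, and all 31 were lower in OLs, where 18.5% of all genes tested were, with a median log2 fold change of -3.43 and medians per litter of -3.42, -2.76, -3.50 and -3.67. Summed over the 31, the level was 3945, 2418, 2919 and 2327 CPM in OPCs and 416, 406, 364 and 212 CPM in OLs. No OPC library comes near the OL libraries, and replicate 1 is highest in both groups. Mki67, the gene of the proliferation antigen Ki-67, stood at 175, 71.4, 151 and 50.6 CPM in OPCs and 7.46, 6.14, 7.8 and 4.33 CPM in OLs (log2 fold change -4.12 ± 0.40 SE, edgeR adjusted p = 5.88e-06). Ttk, a kinase of the spindle checkpoint, showed the greatest fall of the list (log2 fold change -4.64 ± 0.50 SE, edgeR adjusted p = 1.28e-05), from 35.2, 20.04, 45.4 and 11.6 CPM to 0.958, 1.43, 1.67 and 0.497 CPM. Ska1 and Nuf2, which couple kinetochores to microtubules, had log2 fold changes of -4.41 and -4.18, Cenpf, a kinetochore protein, one of -4.09, and Kif23, a motor of the central spindle, one of -3.95. The least change was that of Aurka, the centrosome kinase, at -1.87 ± 0.22. OPC replicate 4 had the lowest level of Mki67, Ttk, Nuf2, Cenpf and Kif23 among OPCs. The group ranges do not overlap for any of the 31, nor for 44.9% of all genes tested and 1972 of the 2414 genes called lower.

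DNA replication genes fell less. Of 38 listed, 34 had a symbol and all 34 fell, where 18.5% of all genes tested did. Their median was -2.41, with medians per litter of -2.58, -2.21, -2.08 and -2.39. Summed, they stood at 4409.9, 2930.5, 2415 and 3202 CPM in OPCs and 823, 725, 704 and 599 CPM in OLs, a drop in every litter that leaves more signal in OLs than the mitosis genes did. Mcm10, which loads the replication machinery onto origins, stood at 81, 42.9, 45 and 33.4 CPM in OPCs and 5.47, 4.21, 3.74 and 2.13 CPM in OLs (log2 fold change -3.70 ± 0.34 SE, edgeR adjusted p = 4.48e-06). Uhrf1, which recruits the maintenance DNA methyltransferase, stood at 242, 136, 116 and 129.9 CPM in OPCs and 14.8, 14.6, 11.8 and 7.03 CPM in OLs (log2 fold change -3.69 ± 0.30 SE, edgeR adjusted p = 1.78e-06), and Rrm2, a subunit of the enzyme that makes deoxynucleotides, at 286, 154, 134 and 142 CPM in OPCs and 20.7, 18.1, 14.1 and 7.1 CPM in OLs (log2 fold change -3.58 ± 0.34 SE, edgeR adjusted p = 5.50e-06). OPC replicate 1 is the highest library for all of these. Gins1, part of the replicative helicase, Cdc6, an origin loading factor, and Pola1, the catalytic subunit of DNA polymerase alpha, had log2 fold changes of -3.46, -3.19 and -3.17. The smallest change was that of Mcm7 at -1.35 ± 0.22.

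Of 29 genes listed for entry into S phase, at least 12 fell, where 18.5% of all genes tested did. None of the 13 measured rose, and 1 of them, Cdkn1a, was not called. Ccnd1, cyclin D1 (chromosome 1, 218090750 to 218100325), stood at 1537, 1986, 2289.5 and 1781 CPM in OPCs and 240.4, 171, 146 and 200.4 CPM in OLs (log2 fold change -3.32 ± 0.24 SE, edgeR adjusted p = 6.68e-07). Ccnd2 stood at 189, 414, 604 and 235 CPM in OPCs and 51, 36.8, 33.7 and 42.5 CPM in OLs (log2 fold change -3.14 ± 0.34 SE, edgeR adjusted p = 1.37e-05), with OPC replicate 3 highest. Cdk6, the kinase partner of these cyclins, had a log2 fold change of -3.49 ± 0.56, and Rbl1, the pocket protein p107, one of -3.76 ± 0.39. The repressors E2f7 and E2f8 fell further than the activators E2f1 and E2f3 in their point estimates, at -4.03, -3.61, -1.82 and -1.32, a contrast that was not tested. Cdkn1a, which encodes the cell cycle inhibitor p21 and is named here after its values were seen, stood at 185, 417, 289 and 465 CPM in OPCs and 153, 245, 299 and 269 CPM in OLs. Its groups overlap and it was not called (log2 fold change -0.49 ± 0.28 SE, edgeR adjusted p = 0.16), though it was called lower with ERCC scaling (-1.88).

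The genes that ERK signalling induces, and its feedback inhibitors, were lower in OLs where named. At least 14 of the 26 listed genes fell, where 18.5% of all genes tested did, with a median log2 fold change of -2.33. Spry4, a feedback inhibitor of receptor tyrosine kinases, stood at 182, 158, 204 and 180.0 CPM in OPCs and 18.1, 11.6, 12.3 and 17.3 CPM in OLs (log2 fold change -3.61 ± 0.21 SE, edgeR adjusted p = 1.30e-07), with little spread within either group. Spry1, its relative, stood at 144, 86, 89.5 and 169 CPM in OPCs and 19.4, 8.5, 13.4 and 19.2 CPM in OLs (log2 fold change -3.01 ± 0.31 SE, edgeR adjusted p = 8.37e-06). Egr1, an immediate early transcription factor, stood at 86, 41.4, 43.2 and 46.7 CPM in OPCs and 9.37, 4.71, 5.65 and 7.03 CPM in OLs (log2 fold change -3.02 ± 0.30 SE, edgeR adjusted p = 8.22e-06). Dusp4, a MAP kinase phosphatase, had a log2 fold change of -2.94 ± 0.43, which was -2.35 without OPC replicate 1, where it stood at 78.2 CPM. Dusp6, Dusp5 and the ERK-responsive factors Etv5 and Etv4 had log2 fold changes of -2.66, -1.99, -1.63 and -1.25.

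Of the 29 growth factor receptors listed, at least 8 were called lower, against 18.5% of all genes tested, with a median of -1.41. Apart from Pdgfra, Egfr stood at 75.8, 44.1, 76 and 43.5 CPM in OPCs and 19.2, 21.2, 23.5 and 22.4 CPM in OLs (log2 fold change -1.47 ± 0.23 SE, edgeR adjusted p = 0.000247). Kit, the stem cell factor receptor, had a log2 fold change of -1.43 ± 0.28, the neuregulin receptor Erbb4 one of -1.40 ± 0.38 and the IGF-1 receptor Igf1r one of -1.37 ± 0.22. Tgfbr2, the type II receptor for TGF-β, stood at 10.8, 13.8, 15.3 and 13 CPM in OPCs and 1.78, 2.5, 2.23 and 2.98 CPM in OLs (log2 fold change -2.48 ± 0.27 SE, edgeR adjusted p = 1.29e-05), and its groups do not overlap. Of the BMP and TGF-β genes, at least 5 of 34 listed fell, while 18.5% of all genes tested did. Members without a symbol are missing from this count but not from that share, and nothing is read from the count. The ligand Bmp7 showed the widest separation, with 89.5, 104, 64.6 and 115 CPM in OPCs and 18, 11.9, 13 and 15.6 CPM in OLs (log2 fold change -2.67 ± 0.23 SE, edgeR adjusted p = 2.30e-06). The receptors Bmpr2, Tgfbr1 and Acvr2a were called at -1.33, -1.33 and -1.24, and none of the 3 was called without OPC replicate 3, with log2 fold changes of -0.96, -0.92 and -0.91.

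Of the Wnt genes, at least 8 of 30 listed fell, against 18.5% of all genes tested, with a median of -1.37. Lef1, a nuclear effector of β-catenin, stood at 5.91, 1.94, 2.2 and 2.5 CPM in OPCs and 0.342, 0.428, 0.239 and 0.071 CPM in OLs (log2 fold change -3.49 ± 0.57 SE, edgeR adjusted p = 0.00025), and the receptor Fzd7 at 17.1, 38.9, 47.4 and 20.4 CPM in OPCs and 8.69, 6.78, 6.84 and 8.66 CPM in OLs (log2 fold change -1.9996 ± 0.33 SE, edgeR adjusted p = 0.000338). Tcf7, a relative of Lef1, the ligand Wnt5a and the pathway inhibitor Apcdd1 had log2 fold changes of -1.43, -1.41 and -1.34. Fzd3 was called at -1.34, but not without OPC replicate 3 (-0.87). Of the Notch genes, 4 of 21 listed were measured, of which 3 fell and 1 rose. Of all genes tested 18.5% fell and 14.1% rose, and nothing is read from these counts. Mfng, a glycosyltransferase that modifies Notch receptors, rose from 1.91, 0.668, 0.287 and 1.18 CPM in OPCs to 15.9, 21.3, 19.3 and 13.8 CPM in OLs (log2 fold change 4.16 ± 0.40 SE, edgeR adjusted p = 5.33e-06). The ligand Jag1 fell from 17.1, 14.6, 27.8 and 11.5 CPM in OPCs to 5.75, 3.57, 4.06 and 4.47 CPM in OLs (log2 fold change -1.995 ± 0.31 SE, edgeR adjusted p = 0.000251), and the target gene Hes1 and the coactivator Maml2 had log2 fold changes of -1.20 and -1.28. Of 31 secreted growth factors listed, at least 3 fell, where 18.5% of all genes tested did, with 5 measured. Nothing is read from this count. Lif (-0.97) and Gdf15 (-0.78) were called only without OPC replicate 1 (-1.29 and -1.13) among the fits without 1 library, and with ERCC scaling. Fgf13, an intracellular FGF homologue that binds sodium channels and microtubules, fell from 25.8, 7.75, 15.4 and 20.2 CPM in OPCs to 2.74, 1.5, 2.78 and 2.13 CPM in OLs (log2 fold change -2.92 ± 0.39 SE, edgeR adjusted p = 7.11e-05). Cntf and Nrg1 overlap between groups and lost their call in several fits without 1 library, among them that without OPC replicate 3 (-0.81 and -0.71).

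Of the 29 transcription factors listed for precursors, at least 10 fell, against 18.5% of all genes tested, with a median of -1.51. Sox11, a factor of neural and glial progenitors, stood at 67.1, 35.7, 49.8 and 26.8 CPM in OPCs and 8.28, 5.64, 7.48 and 7.03 CPM in OLs (log2 fold change -2.66 ± 0.29 SE, edgeR adjusted p = 1.62e-05). Hmga2, a chromatin protein of embryonic cells, stood at 2.34, 3.07, 3.53 and 1.18 CPM in OPCs and 0, 0, 0.557 and 0.213 CPM in OLs. It was not read in a pair of OL libraries, and its log2 fold change of -3.77 ± 0.68 became -5.03 without OL replicate 3. Nfia and Nfib, which act in gliogenesis, had log2 fold changes of -1.39 ± 0.23 and -1.86 ± 0.29. Of 23 factors listed for OLs, 3 had a symbol and were tested. All 3 were lower in OLs, a direction that the naming largely fixed, so no direction is given for these factors as a group. These are Sp7, also known as the osteoblast factor osterix, with 0.985, 1.8, 1.48 and 1.74 CPM in OPCs and 0.411, 0.0714, 0.159 and 0.213 CPM in OLs (log2 fold change -2.74 ± 0.47 SE, edgeR adjusted p = 0.00029), Klf6 (-1.77 ± 0.32) and Zeb1, a zinc finger repressor (-1.65 ± 0.32). Factors such as Myrf, Sox10 and Olig2 could not be matched to an identifier here, and the study reported Myrf as higher in OLs than in OPCs.

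Of the 48 genes listed for the extracellular matrix and integrins, at least 13 fell, against 18.5% of all genes tested, with a median of -1.97. Fbn2, a fibrillin of embryonic microfibrils, was among the 10 greatest falls of all named genes, with 260.4, 68.2, 115 and 76.9 CPM in OPCs and 3.56, 1.93, 3.1 and 2.56 CPM in OLs (log2 fold change -5.54 ± 0.47 SE, edgeR adjusted p = 2.06e-06). Its relative Fbn1 fell less, from 32.8, 16.1, 29.8 and 12.4 CPM in OPCs to 5.06, 2.86, 2.47 and 4.33 CPM in OLs (log2 fold change -2.62 ± 0.37 SE, edgeR adjusted p = 0.000102). Itgav, the integrin αV subunit, stood at 190.1, 203, 396 and 119.9 CPM in OPCs and 43.7, 43.2, 37.6 and 39.6 CPM in OLs (log2 fold change -2.47 ± 0.31 SE, edgeR adjusted p = 3.91e-05), with OPC replicate 3 well above the others. Col4a1, a chain of basement membrane collagen, had a log2 fold change of -2.18 ± 0.18, the metalloprotease Mmp16 one of -2.22 ± 0.27 and fibronectin, Fn1, one of -2.11 ± 0.32. Of the guidance and adhesion genes, 11 of 50 listed fell, near the share of all genes tested (18.5%), and nothing is read from this count. Nrp2, a semaphorin receptor, stood at 20.1, 39.9, 47.9 and 23.1 CPM in OPCs and 4.45, 3.78, 3.18 and 4.9 CPM in OLs (log2 fold change -3.002 ± 0.32 SE, edgeR adjusted p = 1.33e-05). The repulsive ligands Sema3a and Sema3e had log2 fold changes of -3.29 and -2.21, which became -2.59 and -1.62 without OPC replicate 3, where both were highest. Sema4f, the ephrin Efnb2 and the adhesion molecule L1cam had log2 fold changes of -2.38, -2.04 and -1.91.

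Channel and transmitter receptor genes fell in at least 14 of 46 listed, against 18.5% of all genes tested, with 15 measured and a median of -1.75. Chrm3, a muscarinic acetylcholine receptor of OPCs, stood at 42.3, 22.4, 33.9 and 30.1 CPM in OPCs and 2.67, 1.93, 2.31 and 2.56 CPM in OLs (log2 fold change -3.76 ± 0.28 SE, edgeR adjusted p = 7.95e-07), and its groups are far apart. Gabra3, a subunit of the GABA-A receptor, had a log2 fold change of -1.86 ± 0.38. The purine receptor P2rx7, the sodium channel Scn2a and the potassium channel Kcnd3 had values of -2.27, -2.23 and -1.93. Kcna2, a potassium channel subunit, was measured and called only with ERCC scaling (-0.43 ± 0.28, or -1.95 with that scaling).

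Of 36 actin genes listed, at least 6 fell, and of 37 genes of microtubules and septins at least 5 fell, while 18.5% of all genes tested did. Members without a symbol are missing from both counts but not from that share, so nothing is read from the counts about these groups. Msn, the membrane-actin linker moesin, stood at 343, 403, 533 and 333 CPM in OPCs and 41.3, 52.7, 43 and 37.9 CPM in OLs (log2 fold change -3.20 ± 0.21 SE, edgeR adjusted p = 3.36e-07). The non-muscle myosins Myh10 and Myh9 had log2 fold changes of -1.83 ± 0.27 and -2.23 ± 0.35, the actin-binding peptide Tmsb10 one of -1.63 ± 0.21 and the kinase Rock2 one of -1.67 ± 0.37. Rdx, radixin, was called at -1.34 but not without OPC replicate 3 (-0.97). Arpc1b, an Arp2/3 subunit named here after its values were seen, stood at 105, 153, 134 and 149.7 CPM in OPCs and 228, 323, 265 and 165 CPM in OLs and did not pass the fold threshold (log2 fold change 0.86 ± 0.22 SE, edgeR adjusted p = 0.00593). It was at -0.52 with ERCC scaling and was called without OL replicate 4 (1.03). Among the microtubule genes, Tubb6, a β-tubulin, stood at 249, 248, 198 and 266 CPM in OPCs and 26.1, 36.6, 36.8 and 35.3 CPM in OLs (log2 fold change -2.83 ± 0.19 SE, edgeR adjusted p = 3.36e-07), and Stmn1, which destabilizes microtubules, at 615, 424, 335 and 408 CPM in OPCs and 81, 81.5, 81.4 and 44.3 CPM in OLs (log2 fold change -2.63 ± 0.25 SE, edgeR adjusted p = 5.88e-06). Map2 and Tubb5 had log2 fold changes of -1.47 and -1.39.

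Of 37 chromatin genes listed, at least 10 fell, against 18.5% of all genes tested, with a median of -1.55. Ezh2, the methyltransferase of the Polycomb complex, stood at 86.5, 52.7, 70.1 and 33.3 CPM in OPCs and 20.5, 14.7, 15.3 and 7.74 CPM in OLs (log2 fold change -2.06 ± 0.33 SE, edgeR adjusted p = 0.000271). Dnmt1, the maintenance DNA methyltransferase, had a log2 fold change of -1.75 ± 0.24, the remodeller Chd7 one of -1.75 ± 0.25, the histone variant H2afz one of -1.87, Hmgb2 one of -4.32 and Hmgb1 one of -1.35. Hmgb2 did not pass the alternative filter of 1 CPM in 4 libraries, so its fall was measured at a low level. Of 34 genes of splicing and RNA binding, at least 13 fell, against 18.5% of all genes tested, with a median of -1.33. Celf4, which binds mRNA, stood at 9.17, 4.68, 6.93 and 5.42 CPM in OPCs and 1.37, 1.07, 1.11 and 1.42 CPM in OLs (log2 fold change -2.39 ± 0.33 SE, edgeR adjusted p = 9.09e-05). Igf2bp3 and Igf2bp2, which bind mRNAs of growing cells, had values of -2.01 and -1.59, Rbfox1 one of -1.96 and Hnrnpa1 one of -1.72. Elavl2 was called at -1.41 with overlapping groups, but not without OL replicate 2 (-1.23) or OL replicate 4 (-1.26). Since only uniquely mapped reads were counted, levels of Hmgb1, Hmgb2, H2afz, Hnrnpa1, Tubb5 and histone genes, which have near-identical copies, are uncertain.

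**Figure D4:**
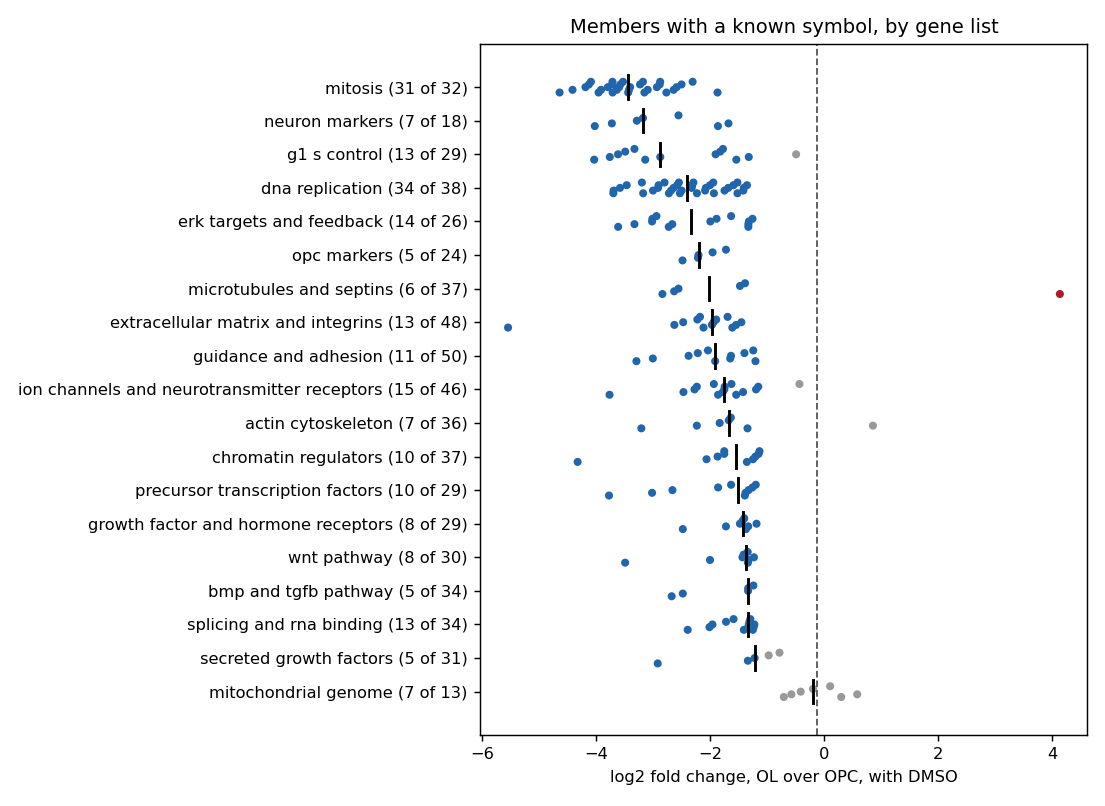
Log2 fold change, OL over OPC, with DMSO for each measured member of the 19 lists with at least 5 measured, with blue points for genes called lower, red for called higher and grey for not called, a black bar at the list's median and a dashed line at the median of all genes tested, -0.12. Labels give the members measured of those listed. Mitosis, at -3.43, lies furthest below the line and the mitochondrial genome, at -0.19, next to it.

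Few metabolic genes could be named. Gpd1, which makes glycerol 3-phosphate, a building block of phospholipids, stood at 3.94, 8.55, 4.16 and 7.01 CPM in OPCs and 55.9, 54.3, 34.5 and 59.6 CPM in OLs (log2 fold change 3.13 ± 0.29 SE, edgeR adjusted p = 4.39e-06). Pfkl, the liver type of phosphofructokinase, stood at 56.2, 87.6, 53.2 and 93.8 CPM in OPCs and 179.7, 374, 319 and 209.7 CPM in OLs (log2 fold change 1.90 ± 0.27 SE, edgeR adjusted p = 0.00013), and Acacb, an acetyl-CoA carboxylase, at 1.42, 0.801, 1.05 and 1.74 CPM in OPCs and 2.94, 3.07, 3.1 and 4.9 CPM in OLs (log2 fold change 1.496 ± 0.33 SE, edgeR adjusted p = 0.00265). The groups do not overlap for the 3 genes, and Txnip, an inhibitor of glucose uptake, was not called (0.52, or -0.80 with ERCC scaling). With ERCC scaling Pfkl and Acacb were no longer called (0.56 and 0.12). Cers4 and Cers6, which make ceramides of different chain lengths, were lower, at -1.34 and -1.30, with the call of Cers6 lost without any of OPC replicate 3 (-1.01), OL replicate 3 (-1.17) and OL replicate 4 (-1.17). The 7 measured protein genes of the mitochondrial genome were not called, with a median of -0.19 and values from -0.71 for Mt-nd5, which was called lower with ERCC scaling, to 0.58 for Mt-nd3, which was at -0.75 with that scaling. Genes of cholesterol synthesis and of the thyroid hormone axis could not be matched to identifiers here.

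Some genes that mark other cells of the cortex were lower in OLs, and their part in the falls above was not tested. Most markers of these cells had no symbol here, so no direction is given for neurons, mural cells, microglia or astrocytes as such. Of 18 neuronal markers, 7 were measured and fell, where 18.5% of all genes tested did. The naming largely fixed their direction, and nothing is read from the count. Their summed level ranged from 110.3 to 217 CPM in OPCs and from 23.4 to 53.9 CPM in OLs. Dcx, a protein of migrating neuroblasts, stood at 94.5, 46.7, 137 and 48.5 CPM in OPCs and 34.5, 16.2, 22.8 and 16.5 CPM in OLs, and Stmn2, a regulator of growth cone microtubules, at 43, 21.2, 21.8 and 42.3 CPM in OPCs and 7.87, 2.86, 4.38 and 6.61 CPM in OLs. Gad1, which makes GABA, stood at 20.7, 17.4, 25.2 and 37.4 CPM in OPCs and 3.49, 0.5, 0.716 and 1.35 CPM in OLs (log2 fold change -4.02 ± 0.45 SE, edgeR adjusted p = 1.84e-05), and Slc32a1, the vesicular GABA transporter, at 19.4, 13, 12.8 and 37.8 CPM in OPCs and 4.86, 0.214, 0.875 and 2.34 CPM in OLs (log2 fold change -3.28 ± 0.57 SE, edgeR adjusted p = 0.000533). OPC replicate 4 is highest for both and OL replicate 1 is the highest OL library, and without the latter they had log2 fold changes of -4.85 and -4.14. Gad2 and Snap25, a synaptic protein, had values of -3.72 and -3.18. Acta2, smooth muscle actin, the only mural marker measured of 15, stood at 53.3, 10.4, 11.1 and 43.7 CPM in OPCs and 1.16, 0.714, 1.35 and 0.639 CPM in OLs (log2 fold change -4.93 ± 0.65 SE, edgeR adjusted p = 6.47e-05), with OPC replicates 1 and 4 far above the others. Cd68, the only microglial marker of 16, was near 0 in both, with 1.11, 2.2, 2.29 and 0.903 CPM and 0.342, 0.357, 0.398 and 0.142 CPM, and Sox9, the only astrocyte marker of 14, which OPCs also express, had a log2 fold change of -1.38 ± 0.18. Of 9 Schwann cell markers, 3 were measured and fell, where 18.5% of all genes tested did, and nothing is read from this count either. They are Egr2 (-2.72), Pou3f1 (-2.41), which OPCs also make, and the growth cone gene Gap43 (-1.26). Gpnmb, a lysosomal glycoprotein, and Gbp5, an interferon-induced GTPase, had values of -1.44 and -1.58, and the related Gbp2 overlaps between groups and lost its call in several fits without 1 library, among them that without OPC replicate 3 (-0.83).

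Among all named genes, the greatest rises were led by AABR07019383.1, a gene known only by a clone name, with 0.185, 0.2, 0.239 and 0.208 CPM in OPCs and 18, 48.8, 38.6 and 17.3 CPM in OLs (log2 fold change 7.13 ± 0.52 SE, edgeR adjusted p = 3.14e-07). Pnlip, a triglyceride lipase best known from the pancreas, stood at 2.77, 6.61, 9.46 and 4.1 CPM in OPCs and 372, 573, 434 and 236 CPM in OLs (log2 fold change 6.11 ± 0.40 SE, edgeR adjusted p = 3.15e-07). Kif19, a kinesin known from cilia, stood at 1.48, 2.81, 1.62 and 2.99 CPM in OPCs and 118, 184, 117 and 112 CPM in OLs (log2 fold change 5.92 ± 0.30 SE, edgeR adjusted p = 5.16e-08). The OL level of each is many times the OPC level in every library, and the mean OL level of Pnlip, 272 RPKM, is above that of Mog. Aoc1, a diamine oxidase, had a log2 fold change of 6.43 ± 0.75, which was 5.79 without OL replicate 2, and the apoptosis inhibitor Birc7 one of 6.02 ± 0.74, which was 7.16 without OPC replicate 3, a fit in which OPCs held almost no reads. Acot11, an acyl-CoA thioesterase, Hist2h3c2, a histone H3 gene, and Pgf, placental growth factor, had values of 5.41, 5.34 and 5.29. Since these names come from the table of genes changed by DTG, larger rises without a name exist, up to 8.05. Of the 10 genes of highest level in OLs, 7 were called higher and 1, Mbp, has a symbol. ENSRNOG00000017496, for example, went from 326, 399, 318 and 464 CPM in OPCs to 6647, 9825, 8508 and 6725 CPM in OLs (log2 fold change 4.40 ± 0.30 SE, edgeR adjusted p = 4.05e-07), and ENSRNOG00000018454 from 185, 1454, 826 and 1196 CPM to 4703, 11658, 19409 and 11704 CPM (log2 fold change 3.70 ± 0.60 SE, edgeR adjusted p = 0.000331).

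The greatest fall was that of Cbln4, a secreted synapse organizer, with 14.2, 1.8, 3.73 and 6.46 CPM in OPCs and 0.0684, 0, 0.0796 and 0 CPM in OLs. Over each group these are 428 reads in OPCs and 2 in OLs, an OPC to OL ratio of 229 with a 95% counting interval of 62.9 to 1895, and its log2 fold change of -7.20 ± 1.08 became -6.49 without OPC replicate 1. Aldh1a3, which makes retinoic acid, had 124 and 2 reads, a ratio of 66.3 (17.96 to 553). Serpinb7, a protease inhibitor, stood at 12.2, 14.7, 17.4 and 5.49 CPM in OPCs and 0.205, 0.357, 0.159 and 0.071 CPM in OLs (log2 fold change -5.92 ± 0.53 SE, edgeR adjusted p = 1.25e-06). S100a10, the annexin A2 partner, stood at 97, 283, 283 and 119.5 CPM in OPCs and 4.58, 3.29, 5.57 and 4.19 CPM in OLs (log2 fold change -5.47 ± 0.41 SE, edgeR adjusted p = 8.07e-07), a fall 44.5-fold in size at a high level in OPCs. Nrgn, neurogranin, a calmodulin-binding protein of neurons, stood at 191, 123, 102 and 448 CPM in OPCs and 6.16, 3.64, 5.25 and 4.26 CPM in OLs (log2 fold change -5.48 ± 0.48 SE, edgeR adjusted p = 2.72e-06), with -4.84 without OPC replicate 4. Cd93, a C-type lectin receptor, and AABR07072602.1 had log2 fold changes of -5.64 and -5.41. The glutamate receptor Grm4 had one of -5.39, which became -4.68 without OPC replicate 4, and the histone gene Hist1h2bk one of -5.35, which became -6.13 without OL replicate 1.

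The same stage difference was measured in cells without DMSO and in cells with DTG, in other libraries from the same litters. In untreated cells, with 3 OL against 3 OPC libraries, 3016 of 13110 genes were called (23%), 1461 higher and 1555 lower. Of the 4245 genes called with DMSO, 2538 were called there in the same direction (59.8%, and 84.2% of the untreated list) and 0 in the opposite one. With DTG, with 4 against 4 libraries, 5170 of 13171 genes were called (39.3%), 2163 higher and 3007 lower. Here 3750 of the genes called with DMSO were called in the same direction (88.3%, and 72.5% of the DTG list), and 0 in the opposite one. All 31 mitosis and all 34 replication genes fell under each treatment, with mitosis medians of -3.63 untreated and -3.89 with DTG and replication medians of -2.52 and -2.55. Side by side, the log2 fold change of Mbp was 5.25 with DMSO, 4.73 untreated and 4.18 with DTG, that of Mog 3.62, 3.20 and 2.48, and that of Gjc3 3.71, 4.09 and 1.78. These 3 genes have a symbol here because the study listed them as changed by DTG in OLs. A difference between their DMSO and DTG values was therefore built into their choice, and nothing is read from it. For Mki67 the values were -4.12, -3.54 and -4.87, for Spry4 -3.61, -3.61 and -3.33, and for Pdgfra -1.72, -1.38 and -2.14.

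The difference between treatments was tested as an interaction of stage and treatment. In edgeR, 0 of 13734 genes (0%) were called for a stage change that differed between DTG and DMSO, with 368 at an unadjusted p under 0.05. Between untreated and DMSO, 0 of 13614 (0%) were called, with 132 under that p. Both counts at an unadjusted p are below what chance alone gives. DESeq2's Wald test called 4 and 0, with 461 and 154 at an unadjusted p under 0.05. The 4 are named after their values were seen. They are the interferon-induced genes Ifi27l2b (3.06) and Gbp5 (2.07), Arrdc4, an arrestin-like regulator (-1.84), and Asns, asparagine synthetase (1.601), where a positive log2 value means a stage change that is more positive with DTG, and their DESeq2 adjusted p-values lie between 0.0297 and 0.038. Gbp5 fell with DMSO (-1.58) and had a log2 fold change of 0.49 with DTG. A p that misses the threshold does not show that the stage changes are equal.

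**Figure D5:**
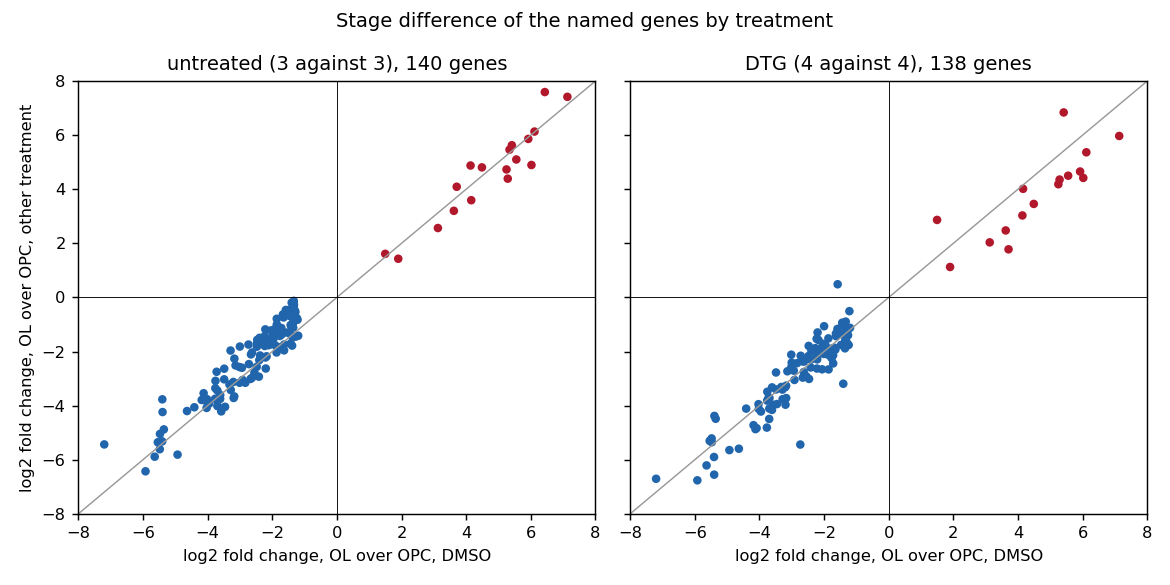
Log2 fold change, OL over OPC, of the genes that the naming rule selected and that have a symbol, with DMSO (x axis) against untreated cells (left, 140 genes tested) and DTG (right, 138 genes tested), with genes called lower with DMSO in blue and called higher in red and the line of equal values in grey. All 140 have the same sign untreated and 137 of 138 with DTG, the exception being Gbp5.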

How the data were processed

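RNA of cultured rat OPCs and OLs was sequenced after poly(A) selection. The authors deposited whole-number counts per gene and library, made from uniquely mapped reads within exons with STAR 2.5.2b and featureCounts of Subread 1.5.2 (bcl2fastq 2.20 for base files), with the genome Rnor_6.0 named in the submitters' processing notes. Counts are not normalized, and replicates were not pooled. ERCC rows (92) were left out.

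The 4 OL and 4 OPC libraries with DMSO were compared in R 4.3.3 with edgeR 4.0.16, using filterByExpr, TMM scaling and the quasi-likelihood test with Benjamini-Hochberg adjustment over all genes tested. Genes were called at an adjusted p below 0.05 and a log2 change of more than 1 in either direction. CPM are TMM-scaled, and litter differences used a pseudocount of 0.1 CPM. The counting error behind a level grows as reads get fewer, and intervals cover counting error only. Shares per library were compared by exact permutation of all 8 libraries, two-sided. The scripts were also tested on simulated data.

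Symbols come from the identifier and name columns of the study's supplementary tables, 1995 from the table on stage, which was available in part, and 108 from that on DTG; 4 identifiers with a date or no symbol were left without one. The other columns of these tables, the authors' fold changes and p-values, were not used. Of 902 genes on 35 lists, 244 had an identifier and 239 were tested, of which 216 were lower, 10 higher and 13 not called. Only the mitosis and replication lists reached 80% with an identifier. Members and lists were chosen with earlier results of these data known. Named genes are, per list, the 6 called members of greatest change and those called against the rest, all measured genes of myelin, OL factor and OPC lists, and the 10 greatest rises and falls and 10 highest OL levels, and others are said to be chosen after their values were seen. Those are Arpc1b, Cdkn1a, Aurka, Mcm7, E2f1, E2f3, Dusp5, Dusp6, Etv4, Kcna2, Lif, Gdf15, Txnip, Mt-nd3 and Mt-nd5. A gene that the rule selects is not reported here.

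Libraries were paired by number, from the date and letter that library names share. The study's methods state that replicates come from independent litters, and a pair was taken as 1 litter. Deviations from group means correlated across genes at 0.37, 0.05, 0.10 and 0.50 for the 4 litters, and at -0.42 to 0.23 for other combinations. The values of litters 2 and 3 lie within that range, so the counts do not single out these pairs. Replicates 2 and 3 share a date.

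Alternatives were DESeq2 1.42.0, its size factors, ERCC scaling, other filters, TMM without mitochondrial genes, no minimum fold, the replicate block and leaving out each library. ERCC scaling without replicate 3, and all alternatives for the other treatments except the block in the interactions, were chosen after seeing the data. The untreated libraries of replicate 3 were counted on other gene models and not used, leaving 22 of 24. Promoters are from RefSeq (GRCr8).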

Additional observations from a re-analysis of the deposited data

Results flagged for a closer look

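Among the 156 named genes and the 3 shares of library make-up, the values of each group of 4 libraries were searched for a library apart from the others by Dixon's ratio at its 95% critical value. Of 318 such groups, 20 (6.29%) held such a library, where chance gives about 5%, so that the number is no finding. Of the 20, 12 are in replicate 1, 2 in replicate 2, 2 in replicate 3 and 4 in replicate 4.

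In OPC replicate 1, genes of the cell cycle and its chromatin stood above the other OPC libraries. They were Dnmt1 at 502 CPM against 252 to 292, Rrm2 at 286 against 134 to 154, Uhrf1 at 242 against 116 to 136 and E2f7 at 41.1 against 21.3 to 23.1. The same library was high for the signalling genes Egr1 at 86.0 CPM against 41.4 to 46.7, Dusp4 at 78.2 against 21.9 to 29.9, Kit at 31.4 against 23.2 to 24.2 and Lef1 at 5.91 against 1.94 to 2.5. In OL replicate 1, Tubb6 was low at 26.1 CPM against 35.3 to 36.8, while Mmp16 at 23.3 against 13.4 to 15.0 and AABR07072602.1 at 0.547 against 0.239 to 0.286 were high, as was Mcm7 at 119 against 93.2 to 96.9.

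In replicate 2, Gad2 stood at 3.61 CPM in OPCs against 7.98 to 8.20, and Kif19 at 184 CPM in OLs against 112 to 118. In replicate 3, Sema3e stood at 84.7 CPM in OPCs against 22.2 to 32.7, and Elavl2 at 1.91 CPM in OLs against 0.643 to 0.753. In OL replicate 4, Stmn1 stood at 44.3 CPM against 81.0 to 81.5, Rock2 at 4.97 against 8.93 to 9.37, E2f7 at 0.923 against 1.83 to 1.92 and Acacb at 4.90 against 2.94 to 3.10. No gene was called in edgeR for a stage change that differed between treatments.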

How the results depend on the processing

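Of 4245 genes called, 4104 were called among 4224 with DESeq2's size factors and 4054 among 4595 with DESeq2's Wald test (2121 higher, 2474 lower). Without a filter 4812 and with 1 CPM in 4 libraries 4055 were called. ERCC scaling gave 6979 (278 higher, 6701 lower) and no minimum fold 6941. Without both libraries of replicate 3, an alternative chosen after seeing the data, ERCC scaling gave 3017 (474 higher, 2543 lower) and a median of -0.78. That median lies between -1.52 with ERCC scaling of all DMSO libraries and -0.12 with TMM scaling. The shift was thus smaller without this litter but remained. Leaving out 1 library gave 3717 (without OPC replicate 3) to 5278 (without OPC replicate 4). With the litters as a replicate block, 4266 genes were called with DMSO (1936 higher, 2330 lower), 3080 untreated and 5104 with DTG, and no named gene changed its call. The interactions had 0 calls with the block (614 genes at an unadjusted p under 0.05 for DTG and 418 for untreated), and DESeq2 called 4 for DTG. Untreated counts were 2665 to 3152 and DTG counts 4641 to 6004 without 1 library, with DESeq2 3086 and 5597, and interactions stayed at 0.

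Of the 156 named genes, all had the same direction and side of the thresholds with DESeq2, its size factors, TMM without mitochondrial genes and no filter, as had the 152 tested with the CPM filter. With ERCC scaling 146 did, Acacb and Pfkl lost and Cdkn1a, Gdf15, Kcna2, Lif and Mt-nd5 gained a call, and Arpc1b (-0.52), Txnip (-0.80) and Mt-nd3 (-0.75) reversed, Txnip (-0.16) and Mt-nd3 (-0.078) also without replicate 3. Most named genes fell, so these counts say little about the rises. Of all 1831 genes called higher, 625 were below 0 with ERCC scaling. Leaving out each library in turn, 143 of the 156 were the same in all 8 fits. Depth limits most the genes with few reads in a group, such as Cbln4 and Aldh1a3.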
